A study of Mus musculus with 6 samples.

Results

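Pm20d1 and 5 other enzymes that make or break N-acyl lipids were examined in the proximal jejunum of ob/ob mice. N-acyl lipids are fatty acids joined through an amide bond to an amino acid, to ethanolamine or to taurine. The 6 members are Pm20d1, Faah, Napepld, Naaa, Gde1 and Abhd4, out of 23420 gene symbols in the count table, and all 6 passed a filter of 1 CPM (a count scaled to the size of its library) in at least 3 libraries. The members were chosen from a comparison of ob/ob with WT libraries in which Pm20d1 had already stood out among the genes with lower levels, and the other 5 were taken for their place in the same chemistry. The members' own differences between the groups are therefore given as a description with a standard error (SE) and without a p-value.

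Bulk RNA sequencing was performed on pieces of washed whole proximal jejunum. The ob/ob mice carry a mutation in the leptin gene, lack functional leptin and overeat, and the controls were C57BL/6J mice (WT). Per the study's methods both strains were bought from 1 supplier, animals were males unless stated otherwise, and each library was a pool of equal amounts of RNA from 2 jejuna. The age of these animals was not given in the sources used here. There were 3 libraries in each group, so errors measure the spread between pools, and the controls are not described as littermates. Overeating, obesity and the missing hormone go together with the genotype and cannot be told apart.

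PM20D1 is an enzyme secreted from cells that joins fatty acids to amino acids and also splits the product. The resulting N-acyl amino acids uncouple respiration in mitochondria, and in mice the enzyme is known from brown fat. FAAH is a membrane-bound hydrolase inside the cell that breaks N-acylethanolamines, such as anandamide and oleoylethanolamide, as well as N-acyl taurines and N-acyl amino acids. NAPE-PLD, encoded by Napepld, releases N-acylethanolamines from a membrane phospholipid in 1 step, while ABHD4 and GDE1 act one after the other on a second route. NAAA is an acid amidase of lysosomes that prefers palmitoylethanolamide. In the upper small intestine oleoylethanolamide is formed by enterocytes after fat intake and is known as a satiety signal that acts through PPARα.

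The libraries held 14661981 to 18286080 counts, and 3 counts in a library were worth 0.159 to 0.198 CPM. CPM values below are scaled with TMM factors, which adjust library totals to the bulk of genes. No 2 libraries agreed within sampling noise (lowest chi-square over its degrees of freedom 8.13). The label of small intestine was matched by enterocyte markers, with a summed level of 10 of them at 48900 to 66900 CPM. Of 8 markers of pancreatic acinar cells, 6 were at 0 in all 6 libraries. Of 2 ileal genes, Fabp6 had at most 3 counts in any library, while Slc10a2, the bile acid carrier, had 50, 37 and 27 counts in ob/ob, against 14, 10 and 36 in WT (edgeR adjusted p = 0.153). The 5 markers of proximal small intestine had log2 fold changes from -0.4 to -0.06, Gata4 without overlap, and none passed by edgeR. Their sum was 3630 to 4280 CPM in ob/ob, against 3980 to 5410 CPM in WT. Lct made up most of it, at 3460 to 4070 CPM in ob/ob and 3730 to 5170 CPM in WT. The sum of 5 distal markers was 162 to 199 CPM in ob/ob, against 129 to 227 CPM in WT, also without a call. Most of that sum was Guca2a, at 129 to 168 CPM in ob/ob and 101 to 191 CPM in WT. A difference in sampling site was not tested. Markers of fat cells and of B cells differed between libraries and are given beside the results they touch.

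Pm20d1 was lower in all 3 ob/ob libraries than in any WT library. WT libraries 1, 2 and 3 had 1228, 1087 and 1285 counts, where ob/ob libraries 1, 2 and 3 had 774, 804 and 734. On the scaled level this was 47.6, 48.9 and 43.7 CPM in ob/ob, against 69.2, 71.7 and 68.3 CPM in WT. The groups did not overlap and each was narrow, with a mean of 46.7 ± 2.72 CPM in ob/ob, against 69.7 ± 1.74 CPM in WT (SD, n = 3). The ob/ob mean was thus 67.0% of the WT mean, a log2 fold change of -0.58 ± 0.06 (SE). With any 1 library left out the log2 fold change lay between -0.61 and -0.53. In bulk tissue, fewer cells of a type and less RNA per cell cannot be told apart.

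**Figure D1:**
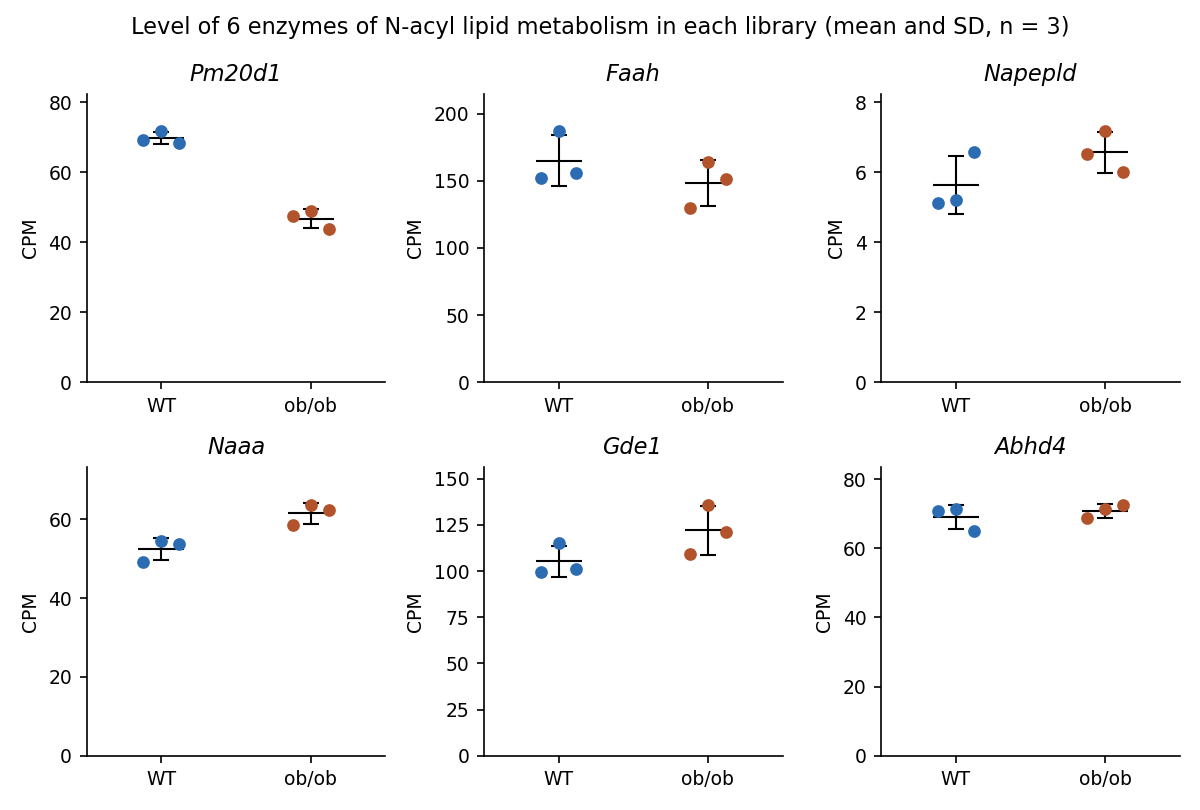
Level of each of the 6 enzymes in CPM (vertical axis, from 0) in WT and ob/ob jejunum, where a point is 1 library and the bars give mean and SD of 3 libraries. Pm20d1 lies at 43.7 to 48.9 CPM in ob/ob, against 68.3 to 71.7 CPM in WT, Naaa is higher in every ob/ob library, and the groups overlap for the other 4.

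The 2 amidases of N-acylethanolamines among the members had fold changes of opposite sign, Faah with overlapping groups. The level of Faah was 130, 164 and 151 CPM in ob/ob libraries 1, 2 and 3, against 152, 187 and 156 CPM in the WT libraries. Libraries 1 and 3 of ob/ob lay below every WT library and library 2 lay inside the WT range, with a log2 fold change of -0.15 ± 0.10 (SE). It was -0.07 without ob/ob library 1, -0.06 without WT library 2 and -0.23 without ob/ob library 2. Naaa had 58.5, 63.7 and 62.4 CPM in ob/ob, against 49.1, 54.4 and 53.8 CPM in WT. Every ob/ob library was above every WT library for this gene, and the log2 fold change was 0.23 ± 0.06 (SE), or 0.11 with scaling by library size alone. Both fold changes were smaller in size than that of Pm20d1, and the difference between the 2 genes was not tested.

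The 3 enzymes that form N-acylethanolamines had overlapping groups. Napepld, the enzyme of the direct route, was at 6.53, 7.18 and 6.01 CPM in ob/ob, against 5.13, 5.21 and 6.59 CPM in WT, a log2 fold change of 0.22 ± 0.15 (SE). WT library 3 lay inside the ob/ob range, and the log2 fold change was 0.35 without it and 0.14 without ob/ob library 2. Abhd4, which strips acyl chains from the phospholipid precursor, was at 68.6, 71.4 and 72.6 CPM in ob/ob, against 70.7, 71.2 and 64.9 CPM in WT, a log2 fold change of 0.04 ± 0.06 (SE) that was -0.08 with scaling by library size alone. Gde1, the phosphodiesterase that acts after it, was at 109, 136 and 121 CPM in ob/ob, against 99.7, 115 and 101 CPM in WT, a log2 fold change of 0.21 ± 0.09 (SE). For Gde1 the overlap came from WT library 2 alone, and the log2 fold change ran from 0.12, with ob/ob library 2 left out, to 0.29, with ob/ob library 1 left out. With scaling by library size alone Napepld was at 0.10, Gde1 at 0.09 and Faah at -0.27.

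Across all 13168 genes tested, 5.67% passed the edgeR threshold of an adjusted p under 0.05, 3.77% higher and 1.91% lower in ob/ob. Calls on the members are not given, since Pm20d1 was selected for its lower level in this comparison. Higher genes were 66.4% of these calls and 18.9% of them with scaling by library size alone. No overlap with ob/ob lower was found for 1 member and with ob/ob higher for 1, against 16.2% and 15.8% of all genes tested. Since the members were chosen with this comparison known, nothing is read from these shares. The median log2 fold change was 0.13 over the 6 members and -0.01 over all genes tested.

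Relative to exon length, the members spanned a wide range of levels. The highest level was that of Gde1, at 77.1 ± 8.79 CPM per kb of merged exons in ob/ob, against 66.4 ± 5.46 in WT (SD, n = 3). Faah followed at 38.7 ± 4.52 and 43.1 ± 4.96 CPM per kb, and its library values did not overlap those of Gde1. Abhd4 (26.4 and 25.7 CPM per kb) and Naaa (25.5 and 21.7 CPM per kb) came next. These neighbours overlapped in ob/ob libraries but not in WT libraries, where Naaa reached 22.5 and Abhd4 began at 24.2 CPM per kb. Napepld was the lowest member, at 1.66 ± 0.148 CPM per kb in ob/ob, against 1.43 ± 0.208 in WT. Transcripts of the second enzyme of the indirect route, Gde1, were thus more abundant per length than those of the direct enzyme by far more than the spread between libraries.

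The rank of Pm20d1 in this order depended on the transcript. GENCODE M21 lists 2 basic transcripts of Pm20d1, of 6900 and 2305 bases, which differ mainly in a long last exon. With the merged exon length of 6912 bases the level was 6.76 ± 0.394 CPM per kb in ob/ob, against 10.1 ± 0.252 in WT, between Napepld and Naaa. With the shorter transcript it was 19.0 to 21.2 CPM per kb in ob/ob, against 29.6 to 31.1 in WT, but Naaa also has a short transcript, of 1629 bases, with which it was at 30.1 to 33.4 CPM per kb in WT and overlapped Pm20d1 there. Abhd4 likewise has a transcript of 868 bases, which would put it at 74.8 to 83.6 CPM per kb over the 6 libraries. In WT it would be at 74.8 to 82 CPM per kb, above Gde1 at 63 to 72.7. The place of Abhd4 beside Naaa and the top rank of Gde1 thus rest on the merged length. Which forms the jejunum uses cannot be read from counts per gene.

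The 6 genes lie apart in the mouse genome (GRCm38, the assembly behind mm10). Pm20d1 is on chromosome 1 from 131797381 to 131821473 on the plus strand, and no annotated gene overlaps it. Faah is on chromosome 4 from 115967145 to 116017926, Napepld on chromosome 5 from 21662901 to 21701396, Naaa also on chromosome 5 from 92257659 to 92278170, Gde1 on chromosome 7 from 118688545 to 118705778 and Abhd4 on chromosome 14 from 54254188 to 54270637. A processed pseudogene, Gm15719, overlaps Napepld and an unclassified transcript, Gm45236, overlaps Gde1, both on the opposite strand. The sources used here do not say whether counting used strand, so the values of these 2 genes are less certain.

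The genes next to Pm20d1 had smaller differences. The closest, Slc41a1, a magnesium transporter whose gene starts 6.02 kb beyond the end of Pm20d1, was at -0.15 ± 0.15 on the log2 scale (SE, edgeR adjusted p = 0.552). Rab29 (-0.22 ± 0.16) and Nucks1 (0.16 ± 0.09) followed on that side. On the other side lay Rab7b (0.08 ± 0.18), Ctse, which encodes the protease cathepsin E (0.21 ± 0.27), and Srgap2 (-0.02 ± 0.12). None of these 6 neighbours passed the edgeR threshold, where the adjusted p was 0.289 to 0.920 and the lowest unadjusted p was 0.106. A difference between Pm20d1 and its neighbours was not tested.

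**Figure D2:**
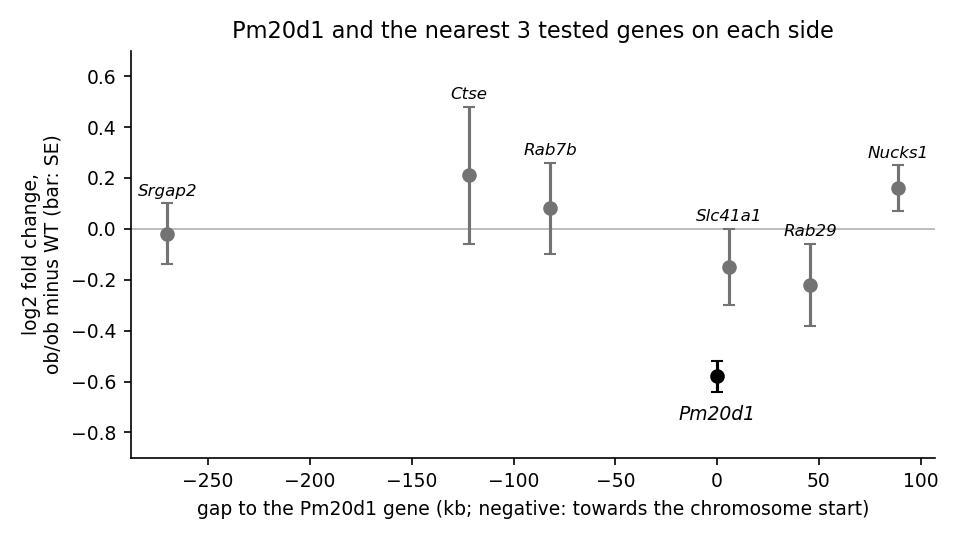
Log2 fold change of Pm20d1 (black) and of the nearest 3 tested genes on each side (grey), with SE, against the gap to the Pm20d1 gene in kb. Pm20d1 is at -0.58 and the 6 neighbours lie between -0.22 and 0.21.

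The genes with a library profile nearest to that of Pm20d1 lay outside the pathway lists. Likeness was measured as the root mean square difference, over the 6 libraries, of log2 CPM centred on each gene's own mean, among 10414 genes with a mean of at least 5 CPM. The nearest were Gstm2, a glutathione transferase (0.053), Tmem110 (0.056), Pdcd4, an inhibitor of translation initiation (0.061), Zfp532 (0.064) and Agfg2 (0.071), where the median of all these genes was 0.32. All 5 were selected by the ob/ob and WT libraries together, so their lower level in ob/ob follows from the selection. Pdcd4, for instance, was at 56.7, 60.1 and 59.6 CPM in ob/ob, against 87.1, 92.8 and 87.5 CPM in WT. Of the other members, Faah was the closest to this profile, at 0.25 and rank 2211, Abhd4 was at the median of 0.32, and Gde1, Naaa and Napepld were beyond it, at 0.41 to 0.42.

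**Figure D3:**
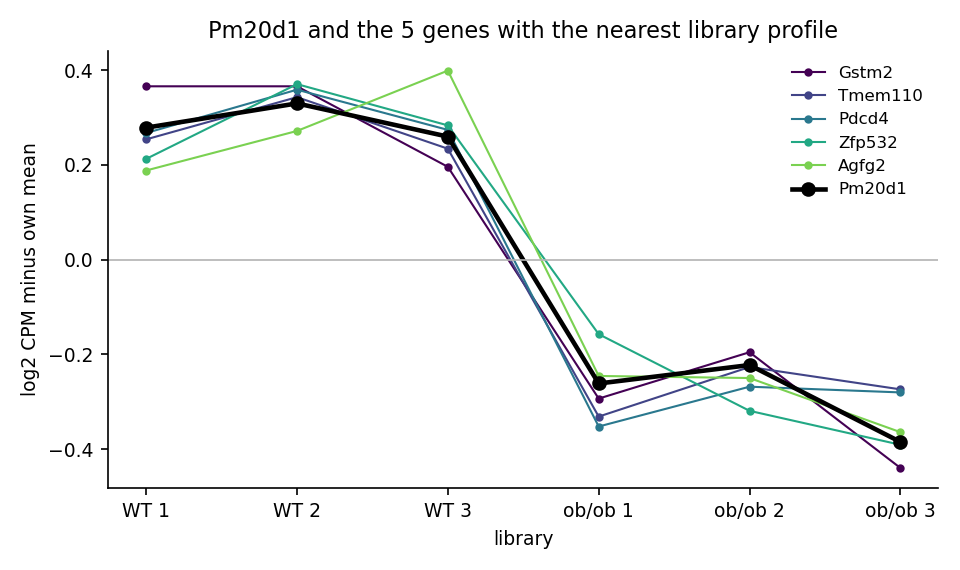
Log2 CPM minus the gene's own mean over 6 libraries (vertical axis) for Pm20d1 (black) and the 5 genes with the nearest profile, by library. The lines join values of 1 gene and replicates have no order. The root mean square difference from Pm20d1 is 0.053 to 0.071.

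Several markers of fat cells and of B cells were also lower in ob/ob libraries. Adipoq, the fat cell hormone adiponectin, had 77, 407 and 51 counts in WT libraries 1, 2 and 3, against 17, 0 and 14 counts in ob/ob (edgeR adjusted p = 0.0552). The summed level of 9 fat cell markers was 227 to 261 CPM in ob/ob, against 253 to 482 CPM in WT, with 2 of 8 tested markers lower past the edgeR threshold, Cfd and Car3. Cidec and Lipe, which are also expressed outside fat, made up most of the sum in every library. Neither passed the edgeR threshold, at 0.28 ± 0.09 and -0.07 ± 0.08 on the log2 scale (SE). Lep was at 0.07 ± 0.88, so not all fat cell markers were lower. Cfd, the secreted protease adipsin, had 123, 630 and 121 counts in WT, against 2, 1 and 8 in ob/ob. WT library 2 had the highest fat cell sum and 71.7 CPM of Pm20d1, with 68.3 and 69.2 CPM in the other WT libraries, and without this library the log2 fold change of Pm20d1 was -0.56. Of 5 brown fat genes, Ucp1 and Elovl3 were at 0 counts in all 6 libraries, which allows up to 0.198 CPM per library, and Cidea and Otop1 had at most 5 counts. The fifth, Cox7a1, a subunit of cytochrome oxidase also known from muscle, was at 63.7, 76.7 and 65.9 CPM in ob/ob, against 57.8, 58 and 56.2 CPM in WT, with no overlap (edgeR adjusted p = 0.0726).

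The summed level of 8 B cell markers was 118, 58.6 and 19.2 CPM in WT libraries 1, 2 and 3, against 9.85 to 15.7 CPM in ob/ob, with 4 of 6 tested markers lower past the edgeR threshold. WT library 3, with the fewest B cell transcripts of the WT group, had 68.3 CPM of Pm20d1, and without WT library 1 the log2 fold change of Pm20d1 was -0.58. The sum of enterocyte markers went the other way, at 59700 to 66900 CPM in ob/ob, against 48900 to 55100 CPM in WT, with 3 of 10 higher past the threshold. Only Lct and Anpep among them had negative log2 fold changes (-0.21 ± 0.12 and -0.15 ± 0.1, SE), with overlapping groups. The sum of villus tip markers was 2410 to 3600 CPM in ob/ob, against 1870 to 2010 CPM in WT, with 3 of 6 higher past the threshold. The summed level of 8 macrophage markers was 108 to 134 CPM in ob/ob, against 124 to 148 CPM in WT, so these groups overlapped. The sum of endothelial markers was lower without overlap, at 56.3 to 63.8 CPM in ob/ob, against 72.7 to 80.4 CPM in WT. Kdr was the 1 of 7 past the threshold, and Pecam1, Tie1, Lyve1 and Prox1 each overlapped between the groups. The sum of fibroblast markers was also without overlap, at 317 to 378 CPM in ob/ob, against 399 to 422 CPM in WT. The lowest edgeR adjusted p among them was 0.0606 (Col3a1), and Dcn alone overlapped (log2 fold change 0.02 ± 0.08, SE). The part of fat cell, B cell, epithelial, endothelial and fibroblast content in the levels of Pm20d1 and Naaa was not tested.

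**Figure D4:**
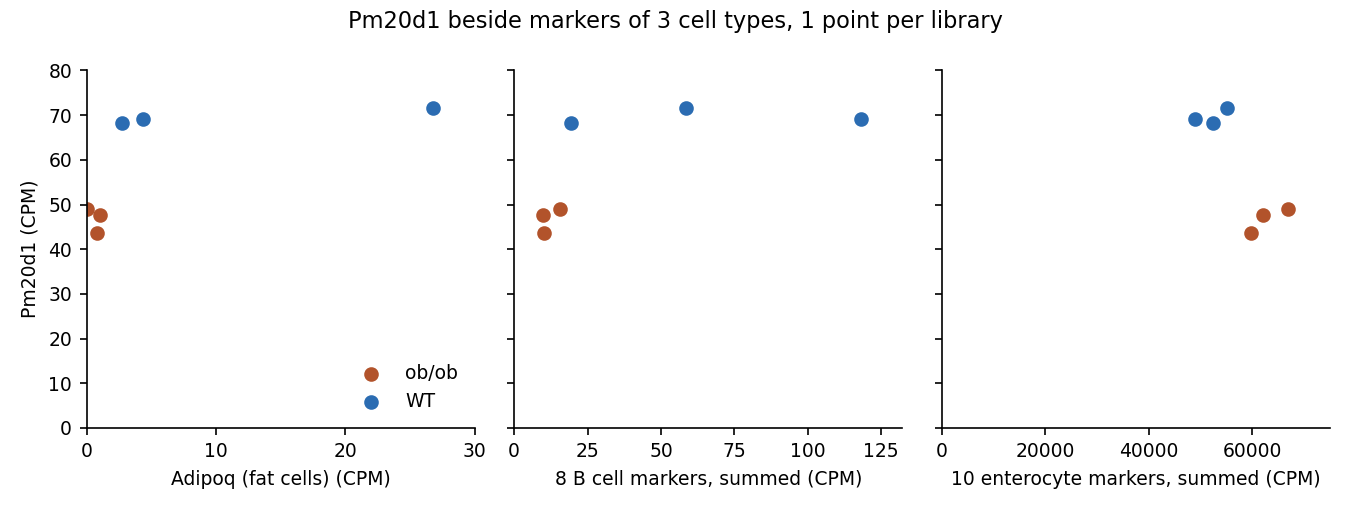
Pm20d1 in CPM (vertical axis, from 0) against Adipoq, the sum of 8 B cell markers and the sum of 10 enterocyte markers, all in CPM, with 1 point per library. Pm20d1 is at 68.3 to 71.7 CPM in WT and 43.7 to 48.9 CPM in ob/ob. The B cell sum is 19.2 to 118 CPM in WT and 9.85 to 15.7 CPM in ob/ob. The part of these cell types in the level of Pm20d1 was not tested.

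The wider pathway was read from 8 lists with 52 genes beside the members, of which 34 passed the filter on low counts. Of these 34, 2 passed the edgeR threshold with a higher level in ob/ob and 0 with a lower one, a share of 5.88%, close to the 5.67% of all genes tested. At an unadjusted edgeR p under 0.05 there were 13 genes (38.2%), 5 of them lower (14.7%), against 25.9% and 12.7% of all genes. DESeq2 called 5 genes higher and 1 lower, or 17.6%, where it called 8.20% of all genes, 5.66% higher and 2.54% lower. The lists were chosen with earlier results of these data known, so nothing is read from these shares or from those that follow. The groups did not overlap for 5 genes with ob/ob higher (14.7%) and 4 with ob/ob lower (11.8%), against 15.8% and 16.2% of all genes. The median log2 fold change of the 34 genes was -0.01, the same as for all genes.

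Pla2g16 and Fabp2 were the genes that rose. Pla2g16, now called Plaat3, encodes a phospholipase that also transfers acyl chains to make the precursors of N-acylethanolamines and is abundant in fat. Its level was 59.7, 52.2 and 54.7 CPM in ob/ob, against 43.0, 26.7 and 32.3 CPM in WT, or 0.70 ± 0.15 on the log2 scale (SE, edgeR adjusted p = 0.0307). WT library 2, the library with the highest fat cell sum, had the lowest value, and the part of fat cells in this level was not tested. The call was kept when WT library 1 was left out (0.91). It was lost when any of the other 5 libraries was left out, namely ob/ob library 1 (0.65), ob/ob library 2 (0.74), ob/ob library 3 (0.71), WT library 2 (0.56) or WT library 3 (0.66).

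Fabp2, the fatty acid carrier of enterocytes, was at 6860, 7530 and 6110 CPM in ob/ob, against 4220, 4560 and 5340 CPM in WT, or 0.54 ± 0.12 on the log2 scale (SE, edgeR adjusted p = 0.0345). Its groups did not overlap. This call was kept when WT library 3 was left out (0.64) and lost when ob/ob library 1 (0.53), ob/ob library 2 (0.46), ob/ob library 3 (0.61), WT library 1 (0.46) or WT library 2 (0.51) was left out. Fabp2 is itself among the enterocyte markers above. The other carriers did not pass by edgeR, while DESeq2 called Fabp1 higher (adjusted p = 0.0463). The edgeR fit gave log2 fold changes of 0.27 ± 0.10 for Fabp1, -0.17 ± 0.14 for the fatty acid translocase Cd36 and -0.11 ± 0.16 for Fabp5 (SE).

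The relatives of PM20D1 among the hydrolases of acylated amino acids and dipeptides gave no call in 6 tested genes. Acy1, which deacetylates N-acetyl amino acids, was at 165 ± 13.5 CPM in ob/ob, against 141 ± 7.23 CPM in WT (SD, n = 3), or 0.23 ± 0.07 on the log2 scale (SE, edgeR adjusted p = 0.0970). Aspa, which splits N-acetylaspartate, was at 0.22 ± 0.10. Cndp1, a carnosinase of the same M20 family as PM20D1, was at -0.25 ± 0.09, and Cndp2, its abundant cytosolic relative, at 0.05 ± 0.10 (SE). The lowest unadjusted p in this list was 0.0131 by edgeR and DESeq2 called none of its genes.

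The remaining genes of N-acylethanolamine formation passed neither by edgeR nor by DESeq2. Ptpn22, a phosphatase of lymphocytes, was at 0.32 ± 0.12 (log2 fold change, SE). Gdpd3, a lysophospholipase D, was at 3.43 ± 0.102 CPM in ob/ob, against 4.66 ± 0.830 CPM in WT, and Inpp5d, a phosphatase of blood cells, at 16.3 ± 1.94 and 22.2 ± 6.08 CPM (SD, n = 3). Both had no overlap between groups, with an edgeR adjusted p = 0.150 and an adjusted p = 0.155. Inpp5d was highest in WT library 1, the library with the most B cell transcripts, and the part of B cells in its level was not tested.

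Among enzymes that oxygenate N-acylethanolamines, Ptgs2, the inducible cyclooxygenase, was the 1 gene tested (0.15 ± 0.19, SE), and Alox12 and Alox15 stayed under the filter with at most 19 counts in a library. Of the acyltransferases that act on taurine and glycine, Acnat1 was at 88.2 ± 8.42 CPM in ob/ob, against 99.8 ± 15.6 CPM in WT (SD, n = 3) with overlapping groups, and Baat was at 2.25 ± 0.732 and 2.34 ± 0.476 CPM. Glyatl3 and Keg1 had 0 counts in all 6 libraries, with the same limit as Ucp1.

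The second endocannabinoid, 2-arachidonoylglycerol, is made by diacylglycerol lipases and broken by MGLL, ABHD6 and ABHD12. Mgll was at 11.7, 12.1 and 12 CPM in ob/ob, against 14.2, 19.6 and 15.5 CPM in WT, a log2 fold change of -0.46 ± 0.13 (SE) that missed the edgeR threshold (adjusted p = 0.0645). Its groups did not overlap and WT library 2 was the highest. Without WT library 1 it passed (-0.55) and without WT library 2 it was at -0.31. Abhd6 was at 81.5, 104 and 94.3 CPM in ob/ob, against 78.2, 74.9 and 72.9 CPM in WT, a log2 fold change of 0.31 ± 0.09 (SE, adjusted p = 0.0678), and it too had no overlap. Abhd12 was at 0.20 ± 0.08 and the synthetic enzyme Daglb at -0.08 ± 0.09 (log2 fold change, SE). DESeq2 called Mgll lower and Abhd6 higher, so the 2 hydrolases had differences of opposite sign by either tool.

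**Figure D5:**
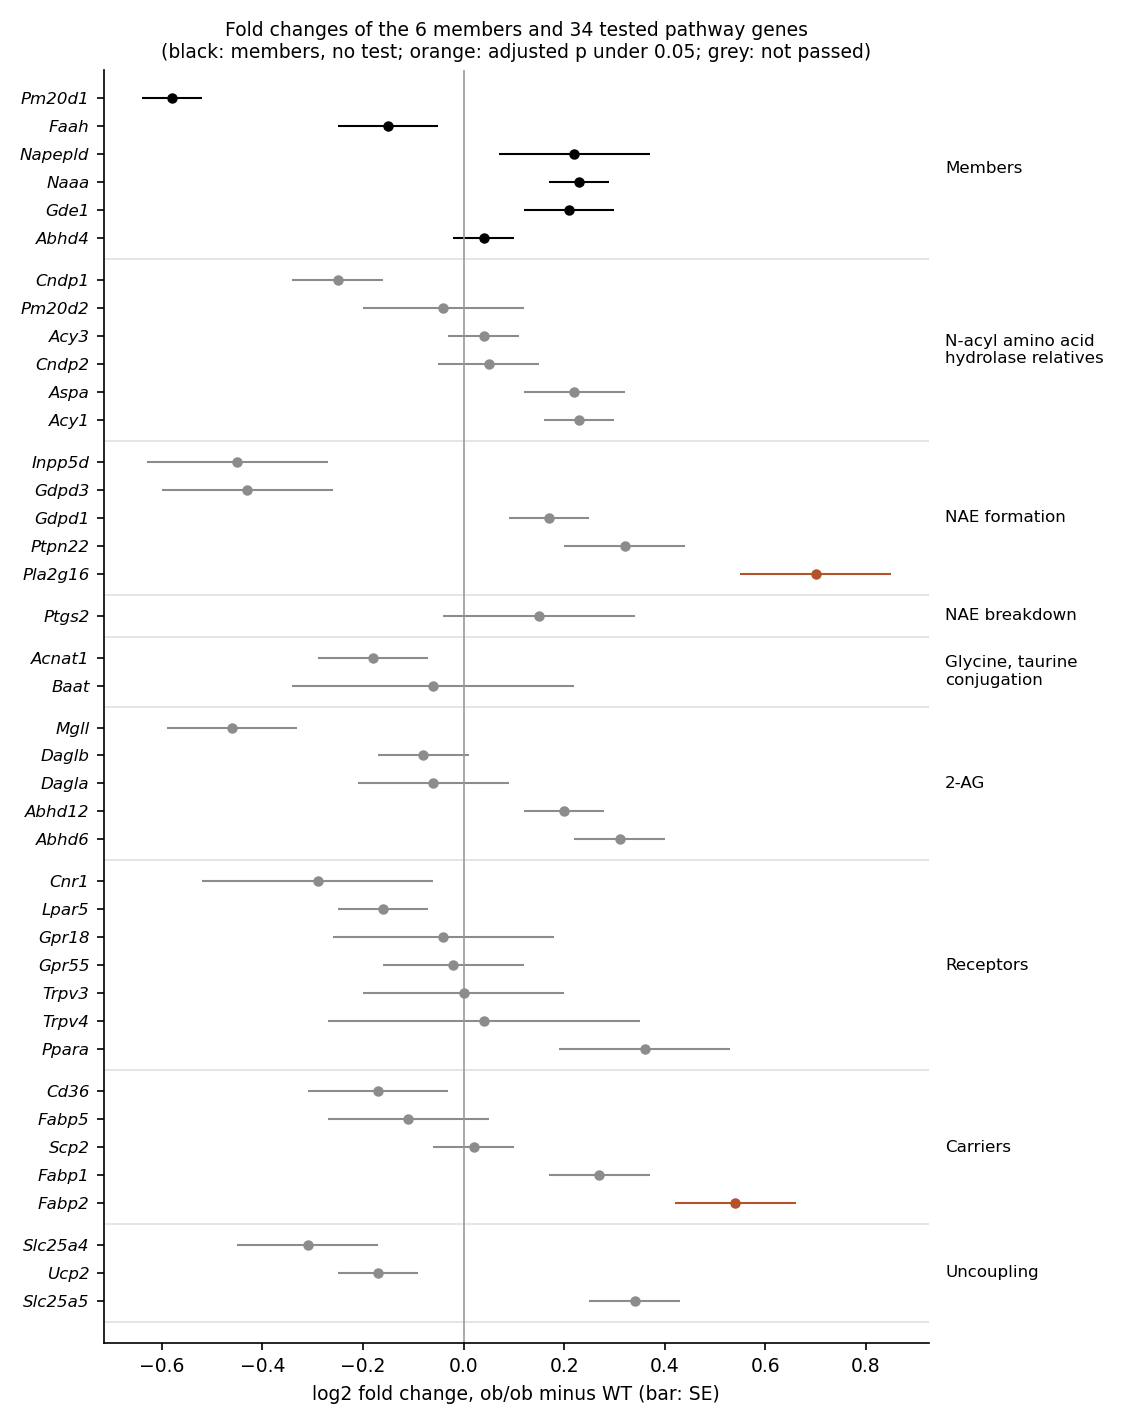
Log2 fold change, ob/ob minus WT, with SE (horizontal axis) for the 6 members (black, no test) and the 34 tested pathway genes grouped by role. Orange marks Pla2g16 and Fabp2, which passed the edgeR threshold, and grey the 32 others. NAE stands for N-acylethanolamine and 2-AG for 2-arachidonoylglycerol.

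Receptors of these lipids were mostly rare. Ppara, the nuclear receptor for oleoylethanolamide, was at 166 ± 35.0 CPM in ob/ob, against 129 ± 26.6 CPM in WT (SD, n = 3) with overlapping groups. Cnr1, the cannabinoid receptor of neurons, was at 3.20 ± 0.961 and 3.92 ± 0.674 CPM, Lpar5 at 22.1 ± 1.69 and 24.9 ± 2.45 CPM, and Gpr18 at 2.97 ± 0.327 and 3.06 ± 0.743 CPM. None of the 7 receptors tested passed, with a lowest unadjusted p of 0.0651 by edgeR, that of Ppara, and no call by DESeq2. The study reports Ppara as upregulated in ob/ob, from a negative binomial model with uncorrected p-values, which is an unlike test. The edgeR likelihood ratio test gave Ppara a log2 fold change of 0.36 ± 0.18 (SE, adjusted p = 0.204). This p-value is corrected across all genes and the study's is not, so the 2 cannot be set against each other. Gpr119, the receptor of enteroendocrine cells for oleoylethanolamide, had 2 to 8 counts per library and Trpv1 had 2 counts in each.

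Cnr2, the cannabinoid receptor of immune cells, is named after its values were seen. It missed the filter, with 59, 31 and 18 counts in WT libraries 1, 2 and 3, against 7, 4 and 2 in ob/ob. Without a filter on low counts it was at -2.96 ± 0.54 on the log2 scale (SE, edgeR adjusted p = 0.0103). The order of the 3 WT libraries was that of the summed B cell markers given above. The part of B cells in the level of Cnr2 was not tested.

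N-acyl amino acids are known to uncouple respiration through carriers of the inner mitochondrial membrane. Slc25a5, an adenine nucleotide carrier, was at 1770 ± 183 CPM in ob/ob, against 1400 ± 83.5 CPM in WT (SD, n = 3), or 0.34 ± 0.09 on the log2 scale (SE, edgeR adjusted p = 0.0613), with no overlap. Its relative Slc25a4 was at 16.7 ± 3.16 and 20.7 ± 1.89 CPM, a log2 fold change of -0.31 ± 0.14, and Ucp2 at -0.17 ± 0.08 (SE). None of the 3 genes tested in this list passed by edgeR, 1 had an unadjusted p of 0.00475 and another of 0.0488, and DESeq2 called Slc25a5 higher. Ucp1 was not detected, and Ucp3 had 1, 0 and 1 counts in ob/ob, against 7, 6 and 4 in WT.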

How the data were processed

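RNA from whole proximal jejunum was sequenced in 3 ob/ob and 3 WT libraries. Per the study's methods and the submitters' processing notes, the authors aligned reads to mm10 with TopHat2 and counted them per gene with HTSeq 0.6p1. The deposited values used are raw counts per gene symbol. Of the other columns of per-sample values, 42 were left out, and 12 of these belong to samples of no group here, while the authors' deposited table of fold changes and p-values was not used.

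The 13168 genes with over 1 CPM in 3 or more libraries were tested by edgeR 4.0.16 (R 4.3.3) with its quasi-likelihood F-test, TMM factors and the group alone in the model. Tests were two-sided, with Benjamini-Hochberg adjustment across all genes tested and a threshold of 0.05. The SE of a log2 fold change was its size over the square root of F. The procedure was tested on simulated data. Alternatives used limma 3.58.1 (voom), DESeq2 1.42.0, the likelihood ratio test of edgeR, other scalings and filters, a replicate block and each library left out.

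The members and gene lists were chosen with earlier results of these data known. The text names the members, up to 4 genes of each pathway list with the smallest p and every gene past the threshold, the 5 genes nearest to Pm20d1 in library profile, with a prior count of 2 on the log2 scale, and the nearest 3 tested genes on each side of it. Markers, and genes under the filter, are named as counts or sums beside this rule. Positions and exon lengths are those of GENCODE M21 on GRCm38. Figures were drawn with matplotlib 3.10.9.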

Additional observations from a re-analysis of the deposited data

How the results depend on the processing

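Counts of calls depended on the scaling, the tool and single libraries. Under library size alone, the fold changes of Pm20d1, Naaa and Abhd4 moved by more than their SD of log2 CPM within groups. Those of Faah, Napepld and Gde1 did not, and no member moved that far with a library left out. With scaling by library size alone, 1735 genes passed (18.9% of them higher, against 66.4% with TMM factors), the median log2 fold change of all genes was -0.13 against -0.01, and Pm20d1 was at -0.69, Naaa at 0.11 and Abhd4 at -0.08, so the sign of Abhd4 is relative to the bulk of genes. With a library left out, Pm20d1 ran from -0.61 to -0.53, Faah from -0.23 to -0.06, Napepld from 0.14 to 0.35, Naaa from 0.19 to 0.27, Gde1 from 0.12 to 0.29 and Abhd4 from 0 to 0.06. With upper quartile factors 45.5% of calls were higher. The edgeR likelihood ratio test called 1404 genes and a threshold of 0.01 left 70. Pathway genes past the threshold numbered 5 with library size alone (3 lower: Cndp1, Mgll and Ucp2), 6 with DESeq2 (5 higher, 1 lower), 5 with the likelihood ratio test (4 higher, 1 lower), 4 without a filter on low counts (1 lower, Cnr2) and 0 at a threshold of 0.01, and upper quartile factors added 1 lower gene, Mgll. Without the filter 49 pathway genes were tested, and 921 of all 18547 genes passed. Over all genes DESeq2 called 1059 and upper quartile factors 858, and nothing is read from these pathway counts.

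With a library left out, 122 to 674 genes passed, namely 122 (ob/ob library 1), 194 (ob/ob library 2), 313 (ob/ob library 3), 674 (WT library 1), 295 (WT library 2) and 583 (WT library 3). Pathway calls ran from 0 to 2, with 0 to 1 higher and 0 to 1 lower. The replicate block gave 730 calls and kept 1 pathway gene, Pla2g16, with Fabp2 at an adjusted p of 0.0510 by edgeR. Same-numbered libraries had correlations of their deviations of -0.0642, 0.124 and -0.0625, so the numbers were not treated as pairs.

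Genes that did not pass changed sign in places: Cndp2 was at -0.06 with library size alone, -0.05 without ob/ob library 2 and -0.02 without WT library 1. Baat was at 0.18 without ob/ob library 3 and 0.07 without WT library 3, in a range from -0.26 to 0.18. Gpr18 was at 0.04 without ob/ob library 3, 0.12 without WT library 1 and 0.02 without WT library 2, in a range from -0.23 to 0.12. Cd36 was at 0.04 without WT library 2, in a range from -0.28 to 0.04 (all log2 fold changes). The causes were not tested. At this depth 18 of 52 pathway genes stayed under the filter on low counts, and of these only Cnr2 passed when the filter was dropped.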
